A study of Monodelphis domestica and Mus musculus and Sus scrofa with 73 samples.

Results

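In limbs of embryos of Carollia perspicillata, a fruit-eating bat, 24 assembled genes moved by less than 0.7 on the log2 scale between stages 13 and 14. They then fell by at least 1 at stage 15, in the forelimb and in the hind limb. These 24 were selected on their measured values from 27026 genes in the gene tables of 16 bat libraries. A gene was chosen if its mean transcript length was at least 1000 bases, its level averaged at least 1 CPM (the expected count per 1000000 counts of the library), its group mean of log2(CPM + 0.5) was lower by at least 1 at stage 15 than at stage 14, and that mean moved by less than 0.7 between stages 13 and 14, with both conditions met in each limb. The minimum on length and level was passed by 11752 genes, of which 97 met the conditions in the forelimb, 92 in the hind limb and 24 in both. The members were chosen by the falls at stage 15, so these falls, and the calls made on them, are given below as a description and support nothing.

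The samples were limbs of embryos collected in the field in Trinidad, and the labels name no treatment. Each limb had 3 libraries at stage 13 (ridge), 3 at stage 14 (bud) and 2 at stage 15 (paddle). In the labels, 2 of the stage 14 forelimb libraries are called ES and both stage 15 forelimb libraries LS, and the remaining 12 carry a stage number. The labels do not say which libraries share an embryo, so p-values measure only the spread between these libraries, which may be technical. Bulk tissue was sequenced, and fewer cells of a type cannot be told apart from less RNA per cell.

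The mammalian limb starts as a ridge of mesenchyme under ectoderm, grows out as a bud under signals from the apical ectodermal ridge and the zone of polarizing activity, and flattens into a hand or foot plate, the paddle, in which digit condensations form. In bats the forelimb goes on to become a wing with long digits joined by membrane, and the hind limb stays small. A gene in these tables is a Trinity component, a group of transcripts assembled together from the pooled bat reads, and its identifier is not paired with a gene name in the files. The members' roles, their pathways and the markers of limb cell types could therefore not be looked up, and the tissue named in the labels was not checked against markers. 4 members are given by identifier and the others by their rank, with rank 1 for the largest fall averaged over both limbs.

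The sum of a library's expected counts ranged from 13.6 to 61.8 times 1000000, so that 3 counts corresponded to between 0.0485 and 0.221 CPM. The shallowest library, replicate 3 of the stage 13 forelimb, had counts for 23.1% of the assembled genes shorter than 300 bases, against 11.7% and 8.90% in the other 2 libraries of its group, and replicate 3 of the stage 14 hind limb had 19.8% against 11.6% in each of the others. This share also moved with stage, from a mean of 14.6% at stage 13 to 10.4% and 7.99% in the forelimb, and from 24.9% to 14.3% and 9.70% in the hind limb, where all 3 stage 13 libraries were at 24.2% or above. The members were longer, from 1010 to 5037 bases, and the part of this share in their falls was not tested.

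The members took up between 0.0803% and 0.120% of the counts of a library at stages 13 and 14 and between 0.0334% and 0.0373% at stage 15. Their summed level was 1137, 1068 and 1203 CPM in the stage 13 forelimb libraries, 803, 888 and 1085 CPM at stage 14, and 339 and 338 CPM at stage 15. The hind limb libraries summed to 1056, 1027 and 1131 CPM at stage 13, 1063, 1009 and 889 CPM at stage 14, and 373 and 334 CPM at stage 15. Every stage 15 sum was under the lowest earlier one, and forelimb and hind limb libraries overlapped at each stage. The mean sum at stage 14 was 2.73 times that at stage 15 in the forelimb and 2.79 times in the hind limb. Without rank 3, the member of highest mean CPM, the ratios were 2.62 and 2.46. The highest member of each library, not the same one in all, gave between 16.8% and 32.7% of its sum. The median CPM over the 11752 genes stayed between 28.1 and 32.1 in all 16 libraries.

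**Figure D1:**
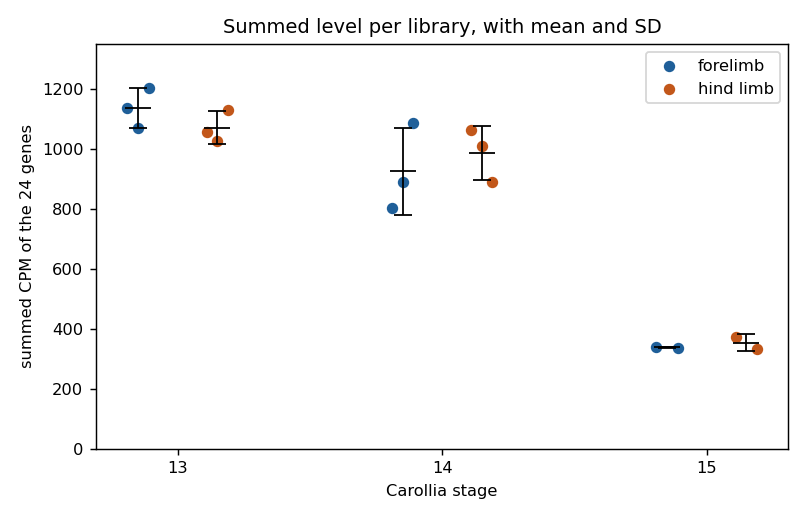
Summed CPM of the 24 members (vertical axis, from 0) in each library (points) of the forelimb and hind limb by Carollia stage (horizontal axis), with group mean and SD in black (n = 3, 3 and 2 libraries). The stage 15 libraries sit between 334 and 373 CPM, and all earlier libraries sit at 803 CPM or above.

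Falls at stage 15 ran from -1.01 to -2.53 on the log2 scale in the forelimb and from -1.04 to -2.51 in the hind limb. Their medians were -1.21 and -1.22, beside 0.02 and 0.04 over the 11752 genes. The falls of the 2 limbs were within 0.2 of each other in 16 members, and the hind limb had the larger fall in 16. The member closest to the limit fell by 1.01 in the forelimb and by 1.19 in the hind limb. The closest gene outside it changed by -0.999 and -1.24, short of the forelimb limit by 0.000956. In all, 9 members lay within 0.1 of a limit and 12 other genes missed 1 limit by under 0.1, so genes lay close to the limits on both sides.

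**Figure D2:**
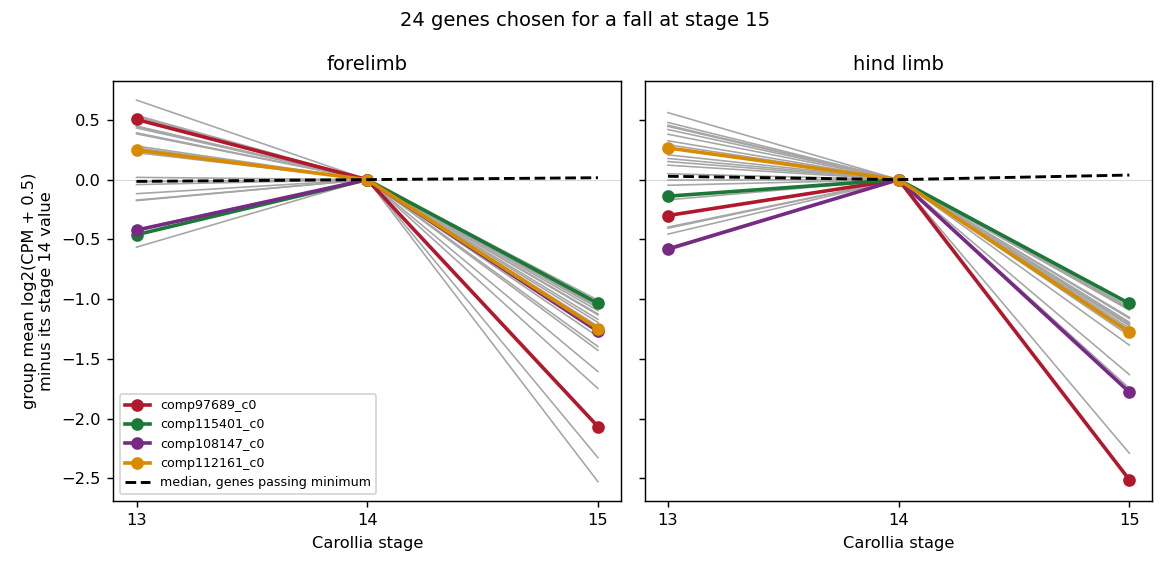
Group mean of log2(CPM + 0.5) minus its stage 14 value (vertical axis) by Carollia stage (horizontal axis) for the 24 members in the forelimb (left) and hind limb (right). Coloured lines are the 4 members named in the text, grey lines the other 20, and the dashed line is the median change over the 11752 genes. All members drop by at least 1 from stage 14 to 15, which the rule required, and start within 0.7 of their stage 14 value.

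On the log2(CPM + 0.5) scale, which shrinks the falls of genes with few counts, the member with the largest mean fall was comp97689_c0, assembled as 1 isoform of 1351 bases. It stood at 81.9, 63.2 and 36.0 CPM in the stage 13 forelimb, at 33.0, 50.8 and 38.7 CPM at stage 14, and at 9.37 and 9.05 CPM at stage 15. Its hind limb values were 48.1, 46.1 and 27.7 CPM, then 44.6, 78.1 and 33.1 CPM, and at stage 15 12.4 and 5.27 CPM. The stage 15 libraries lay below all earlier libraries in both limbs, and the 2 hind limb libraries of stage 15 differed from each other by more than the forelimb pair did. The group means of log2(CPM + 0.5) fell by 2.07 in the forelimb and by 2.51 in the hind limb.

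Per length, the most highly expressed member at stage 14 was comp115401_c0, with 1 isoform of 1042 bases, whose mean of 91.4 FPKM (fragments scaled by transcript length and library size) over the 6 stage 14 libraries compares with 0.708 FPKM for the lowest member. It also had the smallest mean fall, rank 24. It stood at 51.2, 30.1 and 50.9 CPM in the stage 13 forelimb, 46.7, 48.4 and 91.4 CPM at stage 14, and 25.01 and 32.7 CPM at stage 15. The stage 14 library labelled by a stage number was far above the 2 ES libraries, and a stage 13 forelimb library lay inside the stage 15 range. The hind limb libraries held 70.7, 51.4 and 57.2 CPM, then 93.6, 53.7 and 55.3 CPM, then 27.8 and 35.9 CPM, where stage 15 did not overlap the earlier stages. It fell by 1.04 in each limb on the log2 scale.

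The member that rose most before its fall was comp108147_c0, with 1 isoform of 1122 bases and a low level throughout. In the forelimb it stood at 12.2, 5.74 and 4.22 CPM at stage 13, 7.14, 9.04 and 11.9 CPM at stage 14, and 2.89 and 4.25 CPM at stage 15. The hind limb showed 4.11, 3.53 and 6.76 CPM, then 8.31, 7.34 and 6.03 CPM, then 2.47 and 1.19 CPM. Its rise from stage 13 to 14 averaged 0.50 on the log2 scale over the limbs, but libraries of stages 13 and 14 overlapped in both limbs. The higher stage 15 forelimb library was just above the lowest stage 13 library, and in the hind limb stage 15 lay below all earlier libraries.

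The last of the 4, comp112161_c0, was the member with the largest fitted difference between limbs at stage 15 with the forelimb higher. It is 1 isoform of 4519 bases and was among the lowest members per length, at a mean of 0.963 FPKM over stage 14. In the forelimb it stood at 7.33, 5.30 and 7.28 CPM at stage 13, 4.67, 5.94 and 5.85 CPM at stage 14, and 1.93 and 2.09 CPM at stage 15. Hind limb libraries had 1.41, 4.06 and 6.80 CPM, then 2.33, 2.69 and 3.57 CPM, then 0.911 and 0.830 CPM. The forelimb libraries were above all hind limb libraries at stages 14 and 15 and overlapped them at stage 13. The member was named for its difference at stage 15, and the share of all genes with such a separation was not counted. On the log2(CPM + 0.5) scale the level at stage 15 was lower by 2.38-fold in the forelimb and 2.43-fold in the hind limb. At so few CPM the added 0.5 shrinks these folds, and in mean FPKM they were 2.75 and 3.30.

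**Figure D3:**
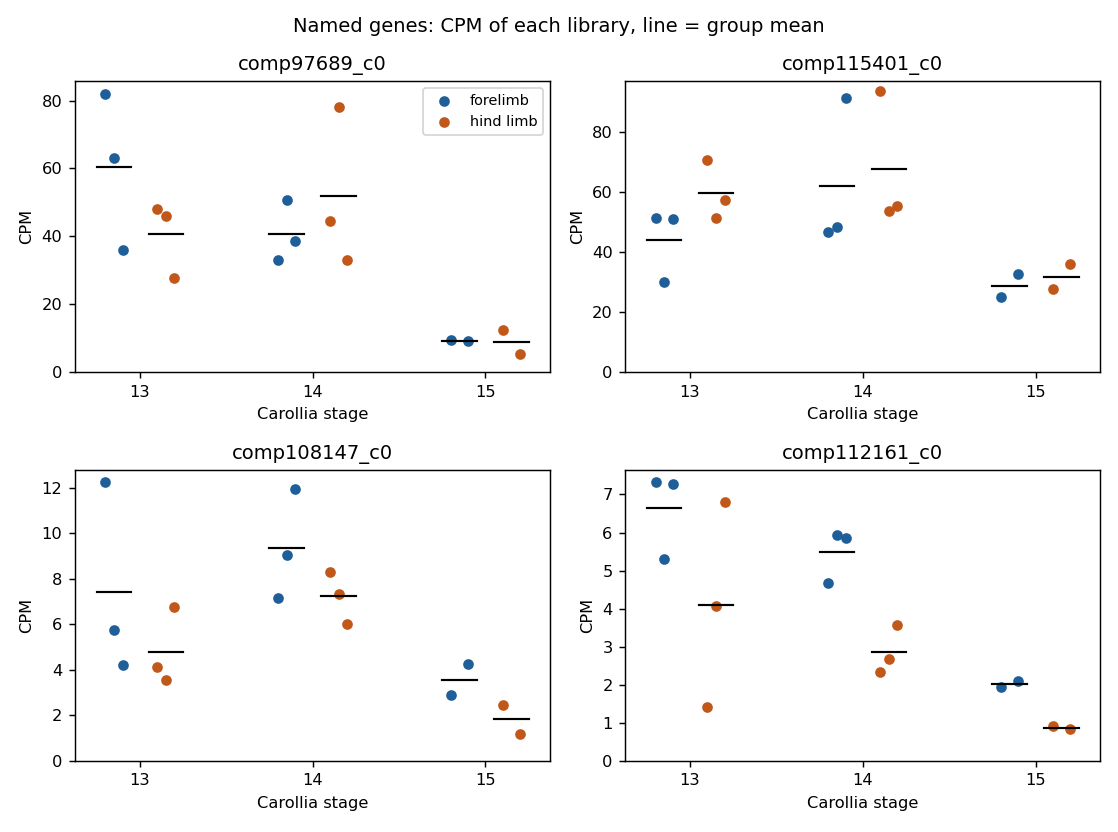
CPM (vertical axes, from 0) of comp97689_c0, comp115401_c0, comp108147_c0 and comp112161_c0 in each library by Carollia stage (horizontal axes), with forelimb and hind limb libraries as points and group means as black lines. Stage 15 libraries lie below the stage 14 libraries of their limb in all 4 panels, and comp112161_c0 is higher in the forelimb than in the hind limb at stages 14 and 15. That member was named for its limb difference at stage 15.

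Other large falls were seen at ranks 2 to 4. The member of rank 2, 1 isoform of 3116 bases, went from a mean of 47.4 ± 8.78 CPM (SD, n = 3) to 7.72 ± 0.233 CPM (SD, n = 2) in the forelimb and from 52.2 ± 12.6 to 15.0 ± 2.40 CPM in the hind limb. The member of rank 3 had the highest CPM and 23 isoforms, and went from 210 ± 72.2 to 66.0 ± 3.30 CPM in the forelimb and from 236 ± 51.2 to 48.9 ± 19.4 CPM in the hind limb. The member of rank 4, with 16 isoforms, went from 60.0 ± 12.7 to 11.4 ± 1.13 CPM in the forelimb and from 50.5 ± 3.11 to 22.3 ± 0.325 CPM in the hind limb. In all 3 the stage 15 libraries lay below every earlier library of their limb. At the other end, the members of ranks 7, 15 and 18 averaged under 2 CPM over all libraries and had at most 8 counts in any stage 15 library, so their falls rest on a few reads. In the edgeR fit, without that pseudocount, rank 15 had log2 differences of -2.38 ± 0.98 (SE) in the forelimb and -2.88 ± 1.03 (SE) in the hind limb and rank 7 of -2.16 ± 0.57 and -2.82 ± 0.66 (SE), beside -2.19 ± 0.24 and -2.58 ± 0.48 (SE) for comp97689_c0, and the order among these 3 cannot be told at this spread.

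Seen library by library, every stage 15 library was below every stage 14 library in 23 of the 24 members in the forelimb, where this held for 21.6% of the 11752 genes, and in 23 in the hind limb, against 15.1%. The exception in both limbs was the member of rank 15. Below all stage 13 libraries as well were 20 members in the forelimb (15.6% of the genes) and 22 in the hind limb (11.6%). The intervals that RSEM gives around each FPKM value, which cover the uncertainty of assigning reads within a library, did not overlap between the stages in 16 members in the forelimb (8.85%) and 19 in the hind limb (5.52%). Members whose intervals overlapped had a median of 2.05 FPKM at stage 14 in the forelimb and 1.94 FPKM in the hind limb, against 15.1 and 12.8 FPKM for those whose intervals did not. As the falls had chosen the members, these counts describe them only.

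In edgeR's quasi-likelihood test of stage 15 against 14 over all genes, 19 of the 24 members had a Benjamini-Hochberg adjusted p-value under 0.05 and were lower in the forelimb, where 4.34% of 15015 genes tested were called lower. Called lower in the hind limb were 16 members, against 1.23% of 15305 genes. All 16 were also among the 19, and 5 members were called in neither limb. Without replicate 1 or replicate 2 of the stage 15 forelimb 10 members were past the threshold in each case (1.55% and 0.581% of all genes called lower), and without replicate 1 or replicate 2 of the stage 15 hind limb the counts were 1 and 0 (0.123% and 0.091%). With 1 stage 15 library left, its spread is taken to equal that of stage 14. In the hind limb all 24 had an unadjusted p-value under 0.05 with all libraries (18.7% of all genes), 21 without replicate 1 (9.88%) and 22 without replicate 2 (8.9%). The rule used this contrast, and nothing is read from these counts.

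Genes chosen in 1 limb could be followed in the libraries of the other limb, which had no part in choosing them. The labels do not say which libraries share an embryo, so the limbs may not be independent of each other. With the length and level minimum taken from forelimb libraries alone, 97 genes met the forelimb conditions. In the hind limb 94 of these 97 were lower at stage 15 than at stage 14, with a median change of -0.76 on the log2 scale and an interquartile range from -1.09 to -0.38, and 34 (35.1%) fell by at least 1. Over all 11727 genes that passed the minimum, 45.5% were lower and 1.38% fell by at least 1. Chosen in the hind limb, 94 genes had a median change of -0.80 in the forelimb, where 81 were lower and 31 (33.0%) fell by at least 1, beside 5655 (48.1%) and 153 of 11747 genes. Fewer of these genes fell by at least 1 in the other limb than in the limb that chose them, where all had to.

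The same reading was made of single stage 15 libraries. When a stage 15 library was left out of the choice, between 24 and 26 genes were chosen, and between 23 and 26 of these were lower in the library left out than in the stage 14 mean of its limb. The medians were -1.19 and -1.05 in replicates 1 and 2 of the forelimb and -1.19 and -1.06 in those of the hind limb. A fall of at least 1 was seen in 15 of 26 and 15 of 24 genes in the forelimb and in 14 of 24 and 14 of 25 in the hind limb. Among all genes passing the minimum, between 1.44% and 2.39% fell that far in these libraries. Simply lower were 5496 of 11729 and 5822 of 11736 such genes in replicates 1 and 2 of the forelimb. In those of the hind limb 5409 of 11748 and 5301 of 11750 were lower. The stage 14 libraries were common to the choice and the reading.

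The rule capped the change from stage 13 to stage 14. The group mean at stage 14 was below that at stage 13 in both limbs in 10 members, above it in both in 5, and on opposite sides in the remaining 9. The median change was -0.26 in the forelimb and -0.14 in the hind limb, beside 0.01 and -0.03 over the 11752 genes, and the extremes were -0.67 and 0.59. Only 4 of the 24 kept under 0.35 in both limbs. In rank 23 every stage 14 library already lay below every stage 13 library in both limbs. The same was seen for ranks 17 and 21 in the forelimb only and rank 4 in the hind limb only. The share of all genes with such a separation was not counted. The summed CPM at stage 13 was 1.23 times that of stage 14 in the forelimb and 1.09 times in the hind limb. The 2 intervals share the stage 14 libraries.

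Tested with edgeR over all genes, no member was past an adjusted p-value of 0.05 between stages 13 and 14 in the forelimb, where 3.03% of 14630 genes were called in either direction, or in the hind limb, where 10.6% of 15007 were. At an unadjusted p-value under 0.05 there were 5 members in the forelimb (19.3% of all genes) and 1 in the hind limb (28.9%). DESeq2 called 1 member in the forelimb, rank 23, as lower at stage 14 (8.2% of the genes it tested) and none in the hind limb (15.9%). Without replicate 3 of the stage 13 forelimb, edgeR called 3 members in the forelimb, with ranks 2 and 17 lower and rank 8 higher at stage 14, where 4.51% of 14980 genes were called. The rule kept changes small here, so a low count was built in.

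Replicate libraries of the members spread more widely than those of other genes before stage 15. The median SD of log2(CPM + 0.5) within a group was 0.52 over the members and 0.25 over the 11752 genes in the stage 13 forelimb, 0.34 and 0.16 in the stage 14 forelimb, 0.39 and 0.20 in the stage 13 hind limb, and 0.32 and 0.24 in the stage 14 hind limb. At stage 15, with 2 libraries per limb, it was 0.13 and 0.15 in the forelimb and 0.23 and 0.12 in the hind limb. Members and the 11752 genes were not matched for level (median of mean CPM 23.0 and 31.3). The parts of level and of the choice itself in this spread were not tested. In the stage 14 forelimb, the library labelled by stage number was above both ES libraries in 15 of the 24 members (62.5%), which held for 38.9% of the 11752 genes. Between the LS and ES libraries alone, 18 members fell by at least 1, as did 146 of the 11752 genes, and the members' smallest change was -0.47. These libraries took part in choosing the members, so this count describes them only. The part of the label wording in the falls was not tested.

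The level in 1 limb against the other was not used to choose the members, and it was tested at each stage. Forelimb and hind limb differed in no member past an adjusted p-value of 0.05 with edgeR at any stage. At stage 13 the fitted log2 differences, forelimb over hind limb, ran from -1.34 to 0.78 with a median of 0.10, and 16 of 24 were positive. In 3 members the unadjusted p-value was under 0.05 (6.08% of 14729 genes), while 0.0747% of all genes were called, and DESeq2 called none of the members and 0.851% of all genes. Without replicate 3 of the stage 13 forelimb 1 member was called, rank 19, with a difference of -2.06 (adjusted p = 0.0165, edgeR). In that fit 7.84% of 15182 genes were called, a larger share than that of the members.

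At stage 14 the differences ran from -0.75 to 0.92 with a median of -0.16, and 8 of 24 were positive. Again 3 members had an unadjusted p-value under 0.05 (7.29% of 14829 genes), with 0.155% of all genes called. These were rank 8 (difference 0.61 ± 0.16, SE, edgeR adjusted p = 0.352), comp112161_c0 (0.92 ± 0.26, SE, adjusted p = 0.381) and rank 17 (-0.52 ± 0.15, SE, adjusted p = 0.388). DESeq2 called 1 member, rank 8, higher in the forelimb with an adjusted p of 0.0422, where it called 1.16% of all genes.

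At stage 15, 21 of the 24 members had enough counts to be tested, and ranks 7, 15 and 18 did not. The differences ran from -0.98 to 1.18, with a median of -0.17, and 9 were positive. An unadjusted p-value under 0.05 was found for 5 members (8% of 14826 genes), with 0.823% of all genes called. The smallest adjusted p belonged to rank 4, at 12.2 and 10.6 CPM in the forelimb and 22.1 and 22.5 CPM in the hind limb, a fitted difference of -0.98 ± 0.22 (SE, edgeR adjusted p = 0.0675). It was past the threshold with DESeq2 (adjusted p = 0.0065), without a filter on low counts, with a stricter filter and without replicate 1 of the stage 15 forelimb. Rank 2 had nearly the same difference, -0.98 ± 0.25 (SE, edgeR adjusted p = 0.126), from between 7.55 and 7.88 CPM in the forelimb and between 13.3 and 16.7 CPM in the hind limb, and was past the threshold with DESeq2 (adjusted p = 0.0491) and without a filter. DESeq2 called these 2 members and 1.43% of all genes. For comp112161_c0 the difference was 1.18 ± 0.49 (SE, edgeR adjusted p = 0.540).

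**Figure D4:**
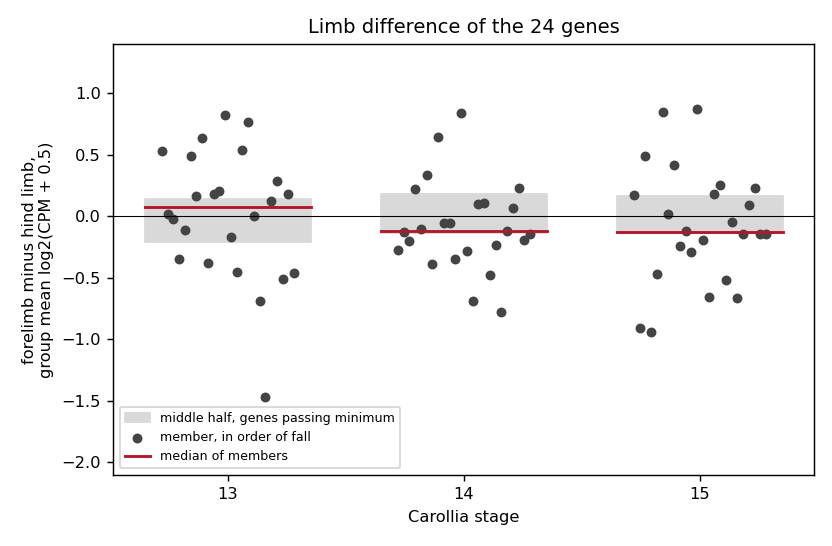
Forelimb minus hind limb difference in group mean log2(CPM + 0.5) (vertical axis) of each of the 24 members (points, in order of their fall from left to right) at each Carollia stage (horizontal axis). The red line is the members' median and the grey band the interquartile range of the 11752 genes. Members scatter to both sides of 0 at every stage, and at stage 15 ranks 2 and 4 lie lowest.

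Whether the fall itself differed between limbs is bounded by the rule, which asks for a fall in both, and is given as a description. Label wording also differed between the limbs, and its part was not tested. In edgeR no member and no gene of 15783 was called for an interaction of stage 15 against 14 with limb (0% of all genes). At an unadjusted p-value under 0.05 there were 2 members, ranks 2 and 4 (4.89% of all genes). The fitted extra fall in the forelimb was -0.83 ± 0.33 (SE) for rank 2 and -1.22 ± 0.24 (SE) for rank 4. DESeq2 called 1 member, rank 4, with an adjusted p of 0.00384, and 0.306% of all genes.

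The median length was 2526 bases in the members and 2534 bases in the 11752 genes, and the median of mean CPM was 23.0 against 31.3. Members assembled as 1 isoform numbered 12 (50%), beside 33.6% of the genes passing the minimum. The 24 members came from 24 different Trinity components. Without gene names or sequences, it could not be checked whether any of these components were pieces of the same gene. Components of 2 members, ranks 3 and 5, held a further gene each, and these changed by -0.35 and -0.03 in the forelimb and by -0.28 and 0.22 in the hind limb on the log2 scale. Neither of them fell by as much as the member beside it.

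RSEM's length for a gene is the mean of its isoforms weighted by their estimated shares, and so follows isoform use. CPM is not divided by length, so a shift to shorter isoforms can lower it and help a gene pass the rule. The length is therefore not free of the choice. It was tested between stages 15 and 14 with limma on log2 length. In the forelimb none of 11 members tested was past an adjusted p-value of 0.05 (0.133% of 8270 genes), and 3 had an unadjusted p-value under 0.05 (9.99%). In the hind limb none of 12 was past it (0.012% of 8368 genes), and 2 had an unadjusted p-value under 0.05 (6.37%). The one member below 0.05 unadjusted in both limbs was rank 4, and it was picked from the members tested for that reason. The share of all genes below 0.05 in both limbs was not counted. The share of genes with stage 15 lengths below all earlier libraries was not counted either. The separation of rank 4 in length therefore has no background to be compared with.

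For rank 4 the length was 1513, 1661 and 1769 bases in the stage 14 forelimb libraries and 1185 and 1207 bases at stage 15. Hind limb lengths were 1615, 1563 and 1514 bases at stage 14 and 1185 and 1136 bases at stage 15. At stage 13 it ran from 1566 to 1646 bases over both limbs, and the 4 stage 15 libraries were below all others. The log2 change was -0.46 ± 0.08 (SE, limma adjusted p = 0.276) in the forelimb and -0.43 ± 0.04 (SE, limma adjusted p = 0.312) in the hind limb. Per length, its level went from 45.1 ± 10.7 to 13.1 ± 1.57 FPKM in the forelimb (SD, n = 3 and 2) and from 40.3 ± 3.19 to 26.8 ± 1.52 FPKM in the hind limb. The hind limb fall was thus 1.51-fold in FPKM and 2.24-fold on the log2(CPM + 0.5) scale. Over all members, the median change in log2(FPKM + 0.5) was -1.12 in the forelimb and -1.14 in the hind limb.

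**Figure D5:**
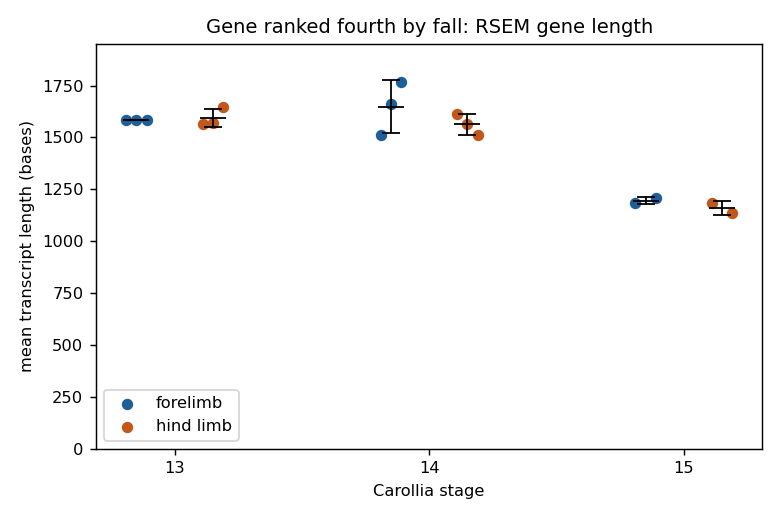
RSEM gene length in bases (vertical axis, from 0) of the member of rank 4 in each forelimb and hind limb library (points) by Carollia stage (horizontal axis), with group mean and SD in black (n = 3, 3 and 2 libraries). The 4 stage 15 libraries sit between 1136 and 1207 bases, below all 12 earlier libraries. The member was picked for its unadjusted limma p-values, and the share of all genes with such a separation was not counted.

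The membership moved with the libraries used. With each of the 16 libraries left out in turn, between 18 and 30 genes met the rule, and the lowest number came without replicate 3 of the stage 14 forelimb. Only ranks 4 and 11 met the rule whichever library was left out, every member met it in at least 10 of the 16, and 35 other genes met it at least 1 time.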

How the data were processed

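RNASeq gene tables of 16 bat limb libraries were used, grouped by limb and stage from the labels. The authors trimmed adaptors and low-quality bases, pooled the bat libraries for a Trinity assembly, kept transcripts with a SwissProt match and ran RSEM with bowtie. Tool versions are not given in the sources used here. Expected counts, as deposited, are estimated reads per gene from RSEM without normalization. FPKM values and interval bounds in the deposited tables are scaled by the authors' RSEM run for length and library size, and RSEM's gene length is in bases. FPKM is not normalized across samples, and the deposited TPM columns were not used.

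CPM was the expected count over the library's sum. The members, comparisons and named genes were chosen with earlier results of these data known. Tests used edgeR 4.0.16 (quasi-likelihood, robust, TMM) on expected counts rounded to whole numbers, for genes with a count of at least 10 in as many libraries as the smaller group, and only the groups compared entered a fit. Gene length was tested with limma 3.58.1 for genes with several isoforms and a count of at least 10 in every library. The Benjamini-Hochberg threshold was 0.05 over all genes tested. The SE printed with edgeR values is the absolute log2 difference over the square root of the F statistic, since the test itself gives none. DESeq2 1.42.0 was an alternative. The edgeR fit was tried on simulated counts for stage 15 against 14 in the forelimb, the limbs at stage 13 and the interaction. The limma fit was tried on simulated forelimb lengths. The other fits, DESeq2 among them, were not tried on simulated data. The named genes are the members with the largest mean fall, the highest stage 14 FPKM, the largest rise from stage 13 to 14 and the largest fitted forelimb excess at stage 15. Intervals and the floor of 3 counts cover counting error only. Comparison of counts within groups gave between 18.9 and 72.2 chi-square per degree of freedom, so no library was a copy of another in its group. R 4.3.3 and Python 3.11.15 were used.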

Additional observations from a re-analysis of the deposited data

How the results depend on the processing

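The 13 results that answer a comparison had 141 alternative values. Of these, 124 were equal to the reported count, within 1.5 times of it or within the spread between replicates. Most of the 124 were counts of 0 that stayed at 0, to which a limit of 1.5 times does not apply. Among them were contrasts that the rule bounds, where a low count was built in. The number of members was 5 with the stricter limit on the fall and 4 with an earlier change under 0.35, and stayed between 19 and 31 with other pseudocounts, minima and TMM library sizes. Members called at stage 15 against 14 ranged from 10 to 18 in the forelimb and from 0 to 17 in the hind limb with 1 library left out, where fewer libraries entered the fit. From 0, members called at stage 14 against 13 in the forelimb became 1 with DESeq2, 1 with all 16 libraries in 1 fit, and from 0 to 3 with 1 library left out. Between limbs they became, at stage 13, from 0 to 1 with 1 library left out, at stage 14, 1 with DESeq2, and at stage 15, 2 with DESeq2, 2 without a filter, 1 with the stricter filter and from 0 to 1 with 1 library left out, and the interaction became 1 with DESeq2. The cause was not tested. With the replicate block, members called between limbs at stage 15 went from 0 to 1, rank 4 (edgeR adjusted p = 0.0243), and at stage 15 against 14 numbered 19 in the forelimb and 22 in the hind limb. The labels do not say that a number marks a shared embryo, and deviations of same-numbered forelimb and hind limb libraries correlated at 0.21, -0.08 and 0.25 at stage 13 and at -0.09, 0.64 and 0.06 at stage 14, and at 0.197 in both pairs of stage 15, where 2 pairs are too few to decide, so the numbers were not taken as pairs. Among named members, the limb difference at stage 15 turned sign as libraries were left out, ranging from -0.45 to 0.80 for comp97689_c0 and from -0.36 to 0.043 for comp115401_c0, with the lowest value for comp97689_c0 without replicate 2 of the stage 15 hind limb and the highest for comp115401_c0 without replicate 1 of the stage 15 forelimb. Stage 15 has 2 libraries per limb, and the members of ranks 7, 15 and 18 have too few counts there for a test between limbs.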
